A study of Mus musculus with 30 samples.

Results

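The ADAMTS proteases described here are 8 of the 43629 genes whose reads were counted in the fracture callus of lean and diet-induced obese (DIO) mice. They were chosen by name, with earlier results of these data known, as the members that cut the large cartilage proteoglycans (the aggrecanases Adamts1, Adamts4, Adamts5 and Adamts9), the members that trim fibrillar procollagen (the procollagen N-proteinases Adamts2, Adamts3 and Adamts14) and Adamts12, which cleaves cartilage oligomeric matrix protein (COMP). All mice were male C57BL/6J, 20 weeks old at an open osteotomy of the right tibia that was held with an intramedullary nail. Lean mice were fed a lean diet and their calli were taken on d3, d5, d7 and d10 after fracture, while DIO mice were fed a high-fat diet and their calli were taken on the same days and also on d14 and d21. Each of the 10 groups holds 3 mice and each of the 30 libraries is the poly(A) RNA of 1 callus, not a pool. Lean mice were not analysed here after d10, and mice are numbered 1 to 3 within a group only to name them. The diet-induced obese mice model obesity from feeding, with no altered gene, and all the animals were of 1 sex and 1 strain.

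ADAMTS proteases are secreted zinc metalloproteinases that carry thrombospondin repeats, and they are made as inactive precursors that furin-like convertases cut. Aggrecanases degrade aggrecan, which gives cartilage its resistance to load, and the looser proteoglycan versican, and the tissue inhibitor Timp3 holds several of them in check. Procollagen N-proteinases remove the amino-terminal propeptide of fibrillar procollagens so that fibrils can form, Adamts2 chiefly on type I and III procollagen and Adamts3 on the type II procollagen of cartilage, and Adamts3 also activates the lymphatic growth factor Vegfc. A healing tibial fracture first fills with inflammatory tissue, then forms a cartilage callus that is resorbed and replaced by woven bone.

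The bases that encode the zinc-binding motif of the catalytic site are shown first, since every member carries the motif and its bases differ between members. Each run holds 36 bases of the coding strand, read from the longest complete coding transcript of the gene in GENCODE M21 (build GRCm38). Capitals mark the codon at bases 22 to 24, between the last 2 codons for the histidines that bind zinc.
Adamts1: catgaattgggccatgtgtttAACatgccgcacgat
Adamts4: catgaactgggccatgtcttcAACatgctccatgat
Adamts9: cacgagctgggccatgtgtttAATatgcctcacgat
Adamts5: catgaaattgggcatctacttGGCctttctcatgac
Adamts2: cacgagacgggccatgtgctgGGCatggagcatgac
Adamts3: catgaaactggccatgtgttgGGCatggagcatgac
Adamts14: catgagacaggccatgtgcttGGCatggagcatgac
Adamts12: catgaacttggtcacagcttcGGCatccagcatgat
In Adamts1, Adamts4 and Adamts9 the marked codon is AAC or AAT, which encodes asparagine, and in the other 5 members it is GGC, which encodes glycine. The procollagen N-proteinases were the most alike, with 32 or 33 of the 36 bases identical in each pair. Adamts1, Adamts4 and Adamts9 shared 28 to 31 bases with each other, whereas Adamts5 shared only 20 to 22 with the other aggrecanases and 23 to 25 with the procollagen N-proteinases. In every member the motif is split over an exon junction, so that each run joins the ends of neighbouring exons. The junction follows base 10 of the motif in Adamts1, Adamts4 and Adamts5 and base 17 in Adamts9, Adamts2, Adamts3, Adamts14 and Adamts12. With the intron between them, these bases lie at chr16:85799188-85799545 for Adamts1 (exons 3 and 4), chr1:171253210-171253918 for Adamts4 (exons 3 and 4), chr6:92905282-92908493 for Adamts9 (exons 8 and 9) and chr16:85878012-85887826 for Adamts5 (exons 2 and 3). Those of the procollagen N-proteinases lie at chr11:50775403-50776137 for Adamts2 (exons 7 and 8), chr5:89707430-89707818 for Adamts3 (exons 8 and 9) and chr10:61225462-61227123 for Adamts14 (exons 7 and 8), and that of Adamts12 at chr15:11241529-11255567 (exons 7 and 8). Adamts2, Adamts4 and Adamts12 are on the plus strand and the other members on the minus strand. Adamts1 and Adamts5 are neighbours on chromosome 16, 53059 bases apart.

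The promoters of the 3 procollagen N-proteinases are shown as a description, and their part in the levels of these genes was not tested. Each holds 300 bases, from 250 before to 50 after the transcription start, from RefSeq on GRCm38.p6, and is written 5′ to 3′ on the strand of the gene with matches to the letters of the GC box in capitals.
Adamts2 (chr11:50601835-50602134, plus strand): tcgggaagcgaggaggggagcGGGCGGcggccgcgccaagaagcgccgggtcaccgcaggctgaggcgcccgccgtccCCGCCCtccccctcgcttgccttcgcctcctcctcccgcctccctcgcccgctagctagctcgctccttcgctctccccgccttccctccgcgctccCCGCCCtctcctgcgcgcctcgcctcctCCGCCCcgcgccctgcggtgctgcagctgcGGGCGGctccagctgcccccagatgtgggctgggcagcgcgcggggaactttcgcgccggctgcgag
Adamts14 (chr10:61273370-61273669, minus strand): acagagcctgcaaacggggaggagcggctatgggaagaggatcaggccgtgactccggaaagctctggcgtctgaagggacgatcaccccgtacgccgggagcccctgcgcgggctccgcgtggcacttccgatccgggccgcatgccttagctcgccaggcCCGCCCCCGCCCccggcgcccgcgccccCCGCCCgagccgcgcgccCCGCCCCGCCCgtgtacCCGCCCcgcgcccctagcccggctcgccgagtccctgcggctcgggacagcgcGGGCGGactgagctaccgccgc
Adamts3 (chr5:89883285-89883584, minus strand): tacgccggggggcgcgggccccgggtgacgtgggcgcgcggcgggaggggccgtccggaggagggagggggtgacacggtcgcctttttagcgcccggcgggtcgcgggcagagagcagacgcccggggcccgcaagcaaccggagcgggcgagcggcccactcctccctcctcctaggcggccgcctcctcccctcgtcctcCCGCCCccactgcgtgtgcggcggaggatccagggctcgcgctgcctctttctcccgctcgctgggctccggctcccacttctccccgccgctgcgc
The GC box was searched as GGGCGG on both strands, and 35.7% of the 32851 promoters of this length hold at least 1 match. The Adamts2 window holds 5 matches, that of Adamts14 holds 7, of which some overlap, and that of Adamts3 holds 1. All 3 windows are rich in CG dinucleotides, with 41, 44 and 41 against a median of 7 over all promoters, and none of them holds the letters TATAAA, which occur in 13.6%. Promoters were also at hand for Adamts1, Adamts9 and Adamts12, with 3, 1 and 0 GC box matches, so that 6 of the 8 members were matched.

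Each library held 13247122 to 26365620 reads counted on genes (median 16854427), and all 8 members passed the filter on low counts in every comparison, with the lowest single count at 42 for Adamts12. Levels are given as CPM, the read count of a gene relative to the size of its library after scaling with edgeR's TMM factors, and changes as log2 fold changes with their standard error from edgeR's quasi-likelihood test. The p-values were adjusted over all genes tested (Benjamini-Hochberg), and a gene is called where the adjusted p is under 0.05. Markers of callus cells were read in each group, and none of the 12 chondrocyte or 10 osteoblast markers was at 0 in all libraries of a group. This held on every day, d3 included, so it does not check the label of a callus. Summed osteoblast markers ranged from 18863 to 78954 CPM. Skeletal muscle markers summed to 494 to 33125 CPM over the libraries. Lean d10 mouse 1 stood apart, with the lowest mean rank correlation to the other libraries of its group (0.958) and summed chondrocyte markers of 89517 CPM, against 21023 and 19197 CPM in the others. Because these are bulk samples, fewer cells of a type and less RNA per cell cannot be told apart in any level given here.

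Per kilobase of exon, Adamts2 was the most abundant member in 30 of 30 libraries, with a median of 20.8 CPM per kb. Adamts14 followed with a median of 8.66 CPM per kb, then Adamts1 with 6.70, Adamts4 with 6.32, Adamts9 with 3.70, Adamts3 with 2.98, Adamts5 with 2.60 and Adamts12 with 0.962. Adamts12 was the lowest member in 27 of 30 libraries. Adamts2 accounted for 26.2% to 55.4% of the summed per-length level of the 8 members, and its share in DIO mice was 28.7% ± 3.90 (SD, n = 3) on d7 and 53.8% ± 1.56 on d14. Over the 10 group means, Adamts4 spanned 7.51-fold, Adamts3 6.88-fold, Adamts12 6.53-fold and Adamts1 3.95-fold. Adamts9, Adamts2, Adamts14 and Adamts5 spanned 2.28-fold, 2.11-fold, 1.88-fold and 1.61-fold.

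**Figure D1:**
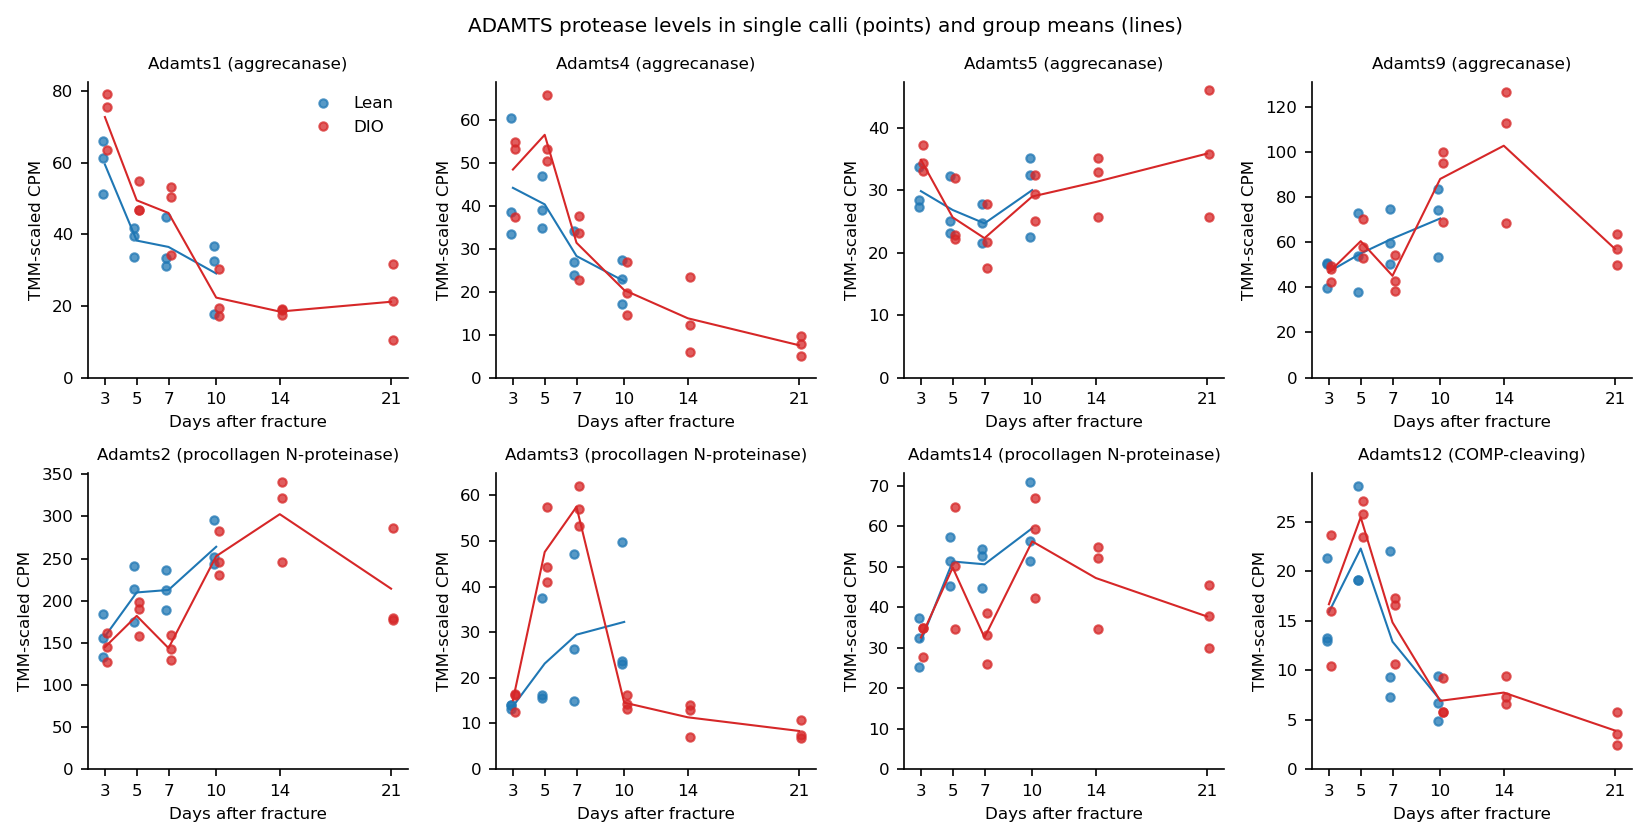
TMM-scaled CPM (vertical axes, from 0) of the 8 ADAMTS proteases against days after fracture, with 1 point per callus (blue, lean; red, DIO) and lines through the group means of 3 mice. Adamts3 stands at 41.0 to 62.2 CPM in the 6 DIO calli of d5 and d7 and at 6.84 to 16.2 CPM in those of d10 to d21, while Adamts1 and Adamts4 are highest on d3 or d5 and Adamts2 on d10 or d14.

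Adamts3 was the procollagen N-proteinase whose time course differed between the diets. In DIO mice it was at 12.6, 16.6 and 16.2 CPM on d3, at 57.5, 44.2 and 41.0 CPM on d5 and at 62.2, 53.4 and 57 CPM on d7. It was then at 13.3, 14.3 and 16.2 CPM on d10, at 13, 7.02 and 14.0 CPM on d14 and at 7.49, 10.7 and 6.84 CPM on d21. All 6 DIO calli of d5 and d7 were above all 12 DIO calli of the other days. In lean mice, Adamts3 was at 14.0, 13.2 and 14.1 CPM on d3, at 15.6, 16.3 and 37.5 CPM on d5, at 26.2, 14.9 and 47.2 CPM on d7 and at 49.9, 23.1 and 23.8 CPM on d10. The lean values of d5, d7 and d10 overlapped each other, and the highest mice of lean d7 and d10 lay within the range of the DIO calli of d5 and d7. Ordered by their means, the groups ran from DIO d7 (57.5 ± 4.40 CPM, SD, n = 3) and DIO d5 (47.6 ± 8.77) over lean d10 (32.3 ± 15.3), lean d7 (29.5 ± 16.4) and lean d5 (23.1 ± 12.5) to DIO d3 (15.1 ± 2.21), DIO d10 (14.6 ± 1.47), lean d3 (13.8 ± 0.458), DIO d14 (11.4 ± 3.78) and DIO d21 (8.36 ± 2.1). Every group overlapped the next one in that order.

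From d3 to d5, Adamts3 rose 3.15-fold in DIO mice (log2 fold change 1.66 ± 0.23, edgeR adjusted p = 0.00119). It was the 1 member called among 8, where 1.68% of all genes tested were called. From d7 to d10 it fell by 1.98 ± 0.23 in log2 units (edgeR adjusted p = 3.03e-05), the largest change of any member between the days compared within a diet. In lean mice the same step gave 0.15 ± 0.44 (edgeR adjusted p = 0.864). The difference between these changes was tested directly over the 24 libraries of d3 to d10 and came to -2.11 ± 0.50 (edgeR adjusted p = 0.0191). It was the 1 member called, against 5.07% of all genes, but the call was lost without lean d7 mouse 2 (adjusted p = 0.056), lean d10 mouse 1 (0.0831) or DIO d10 mouse 1 (0.0583). Over the whole time course of d3 to d10, with polynomials of degree 2 in the day, Adamts3 was again the 1 member whose course differed between the diets (F = 9.71, edgeR adjusted p = 0.0142), where 8.13% of all genes were called, and it kept that call without each of the 24 libraries in turn (highest adjusted p = 0.0342).

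On single days, no member passed the threshold between the diets. On d3, edgeR called 0 of the 8 members and 0% of all genes, 0 members and 2374 genes had an unadjusted p under 0.05, and DESeq2 called 0 members and 728 genes. All 8 log2 differences on that day lay between -0.11 and 0.30. On d5, 0 members and 1.08% of all genes were called, and 3 members and 2913 of 15722 genes had an unadjusted p under 0.05. DESeq2 called 1150 genes and 1 member, Adamts3 (adjusted p = 0.0217). Adamts3 was 1.04 ± 0.34 higher in DIO mice on that day on the log2 scale (edgeR adjusted p = 0.158), its groups did not overlap, and without lean mouse 3, at 37.5 CPM, the edgeR adjusted p was 0.0104, the lowest of 0.0104 to 0.453 over the mice left out. On d7, 0 members and 2.32% of all genes were called, and 3 members and 2614 of 15753 genes had an unadjusted p under 0.05. DESeq2 called 944 genes and 1 member, again Adamts3 (adjusted p = 0.045). Its log2 difference was 0.97 ± 0.34 (edgeR adjusted p = 0.189), with no overlap, and leaving out lean mouse 3, at 47.2 CPM, gave 0.0413, the lowest of 0.0413 to 0.46. Adamts2 and Adamts14 differed the other way on d7, by -0.55 ± 0.17 (edgeR adjusted p = 0.129) and -0.62 ± 0.19 (0.134), and their groups did not overlap either. On d7 all 6 osteoclast markers tested were called lower in DIO mice (median log2 difference -1.37), as were 3 of 9 macrophage and 1 of 10 osteoblast markers, and 2 of 12 chondrocyte markers were called higher (median 1.87). Their part in the differences of the members was not tested. On d10, 0 members and 0% of all genes were called, and 1082 genes and 1 member had an unadjusted p under 0.05, whereas DESeq2 called 47 genes and 0 members. That member was Adamts3, at 14.6 ± 1.47 CPM in DIO against 32.3 ± 15.3 CPM in lean mice (log2 difference -1.13 ± 0.31, edgeR adjusted p = 0.686), and all 3 DIO values were below all lean ones.

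**Figure D2:**
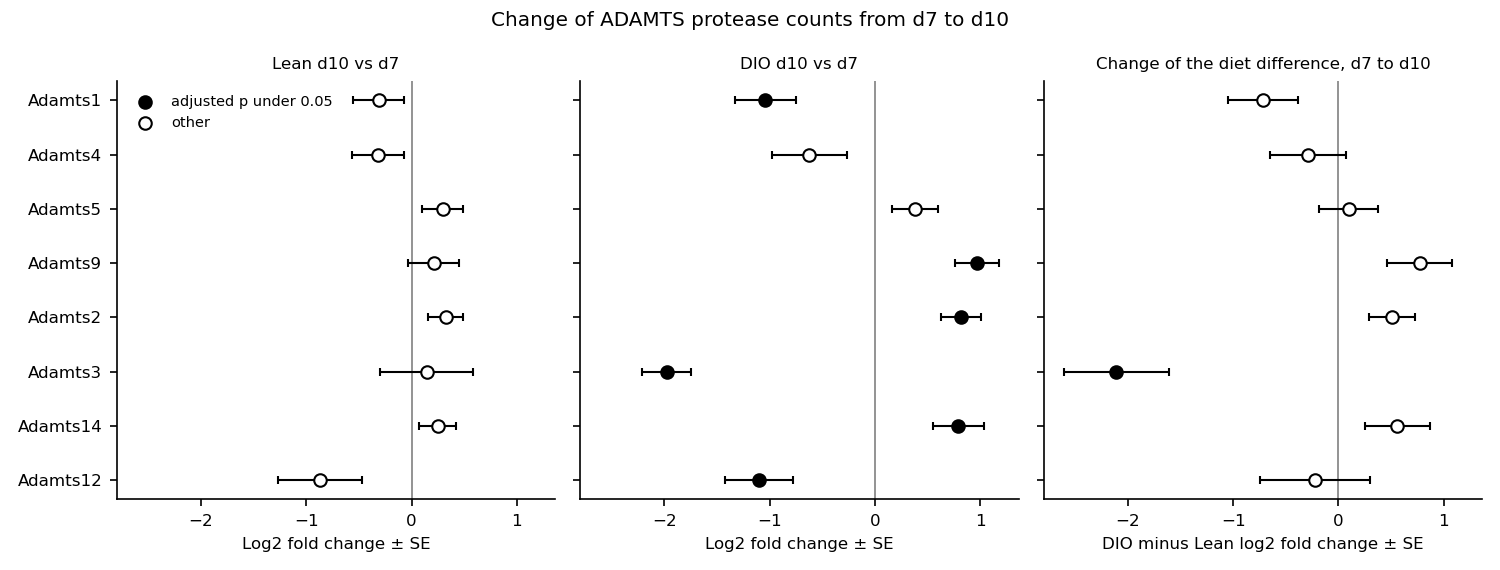
Log2 fold changes ± SE (horizontal axes) of the 8 ADAMTS proteases from d7 to d10 in lean mice, in DIO mice, and the difference of these changes (DIO minus lean), with 3 mice per group. Filled points have an edgeR adjusted p under 0.05: none in lean mice, 6 in DIO mice, and Adamts3 alone, at -2.11 ± 0.50, for the difference.

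The genes whose pattern was most like that of Adamts3 over the 30 libraries were Col27a1, a fibrillar collagen of cartilage (Pearson r = 0.97), D630045J12Rik (0.94) and Papss2, an enzyme that makes the sulfate donor for proteoglycans (0.94). Of the listed genes around the family, its correlation was 0.90 with Acan, the aggrecan core protein, and 0.86 with Col2a1, the type II procollagen. The libraries share days and diets, so these values are given as a description. Adamts3 also followed the summed level of the 12 chondrocyte markers (r = 0.85 and rho = 0.85 over 30 libraries, r = 0.87 over 12 lean and 0.88 over 18 DIO libraries, and r = 0.85 without lean d10 mouse 1). In DIO mice that sum ran from 10472 to 19982 CPM on d5, from 21227 to 47672 CPM on d7 and from 5437 to 11155 CPM on d10, and 9 of the 12 markers fell from d7 to d10. For the difference between the diets' changes from d7 to d10, 9 of the 12 chondrocyte markers were called, all in the direction of Adamts3, with a median log2 value of -4.46 over the list against 0.02 over all genes. In the same comparison 6 of 7 osteoclast markers were called the other way (median 1.44). So were 2 of 10 osteoblast, 2 of 9 adipocyte, 2 of 9 macrophage and 1 of 8 neutrophil markers, while 2 of 9 fibroblast markers were called lower. The part of these markers in the Adamts3 result was not tested. Acan itself differed by -4.97 ± 0.91 (edgeR adjusted p = 0.00487) and Col2a1 by -5.07 ± 1.14 (0.0143) in that comparison.

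**Figure D3:**
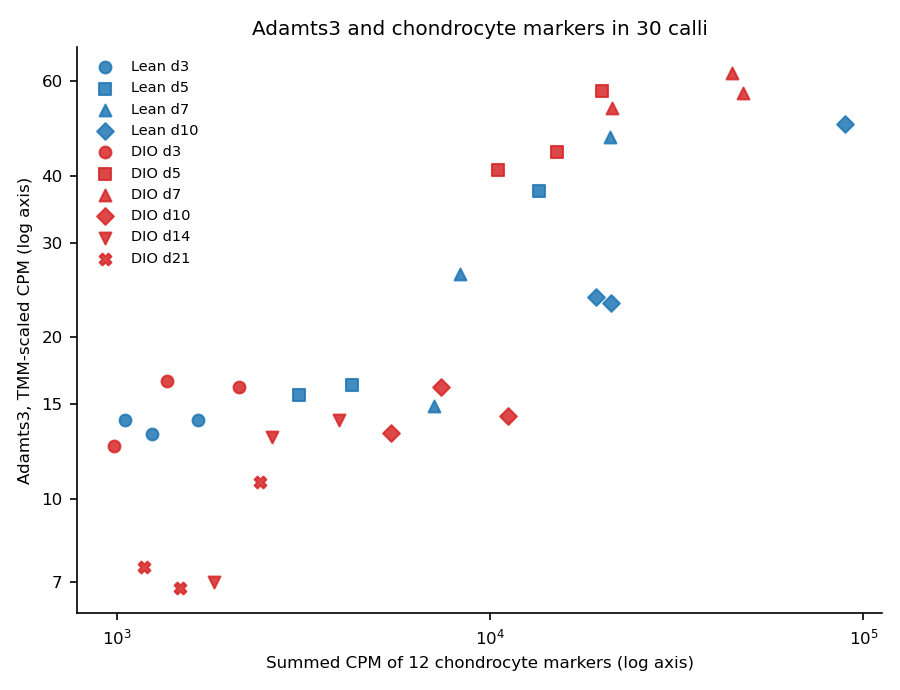
Adamts3 (vertical log axis, TMM-scaled CPM) against the summed CPM of 12 chondrocyte markers (horizontal log axis) in 30 calli, with colour for diet and symbol for day. Both are high in the DIO calli of d5 and d7, whereas lean d10 mice 2 and 3, with 21023 and 19197 CPM of markers, have 23.1 and 23.8 CPM of Adamts3.

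Adamts2 and Adamts14, the other procollagen N-proteinases, both rose from d3 to d10 in lean mice. In lean mice, Adamts2 was at 155, 133 and 184 CPM on d3 and at 252, 244 and 296 CPM on d10. Adamts14 was at 32.3, 25.1 and 37.5 CPM on d3 and at 70.9, 51.4 and 56.4 CPM on d10. In both genes all 3 calli of d10 were above all 3 of d3, and the rise was 1.71-fold for Adamts2 (log2 fold change 0.78 ± 0.17, edgeR adjusted p = 0.00567) and 1.93-fold for Adamts14 (0.95 ± 0.18, 0.0032). Both calls held when each of the 6 mice was left out. On d5, Adamts14 was already at 51.5, 45.2 and 57.3 CPM, above all lean values of d3 (log2 fold change 0.73 ± 0.18), but the edgeR adjusted p was 0.0961. Adamts3 was 1.27 ± 0.45 higher on d10 than on d3 and just missed the threshold (edgeR adjusted p = 0.0524). It passed with DESeq2 (0.0169), in the fit of all 30 libraries (0.0106), with no filter on low counts (0.0376), with the replicate block (0.0325) and without lean d10 mouse 3 (0.0493). These were 4 of 7 other settings and 1 of 6 fits that left out 1 mouse. Over those 6 fits the adjusted p reached 0.202 and the log2 fold change went down to 0.81. The replicate block joins mice of the same number, although these numbers only name them.

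In DIO mice the means of d3, d5 and d7 were 145, 182 and 144 CPM for Adamts2 and 32.5, 49.8 and 32.5 CPM for Adamts14. Both genes were low on d7 and high on d10. Adamts2 was at 142, 130 and 159 CPM on d7, at 283, 246 and 230 CPM on d10 and at 321, 246 and 341 CPM on d14. Adamts14 was at 33.1, 26 and 38.6 CPM on d7 and at 67.1, 59.5 and 42.4 CPM on d10. The groups of d7 and d10 did not overlap in either gene, and the change was 0.82 ± 0.19 for Adamts2 (edgeR adjusted p = 0.00758) and 0.79 ± 0.24 for Adamts14 (0.0402). That of Adamts2 held without each mouse in turn, but Adamts14 lost its call without d7 mouse 1 (adjusted p = 0.0879) or 2 (0.155) or d10 mouse 1 (0.146) or 2 (0.115). Over the 30 libraries Adamts2 and Adamts14 had r = 0.77, and 0.74 once each library was taken as its deviation from the mean of its group. Adamts2 and Adamts3 had r = -0.22 over the 30 libraries, but 0.28 for these deviations, and Adamts3 and Adamts14 had 0.19 and 0.40.

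Among the genes most like Adamts2 were Cpz (r = 0.93), a secreted carboxypeptidase, Aplp2 (0.92) and Scara3 (0.91), and those most like Adamts14 were Ptprs (0.89), Csdc2 (0.87) and Adamtsl2 (0.86), a family member without a protease domain. Of the listed genes, Adamts2 was most like Col1a2 (0.86), which encodes a chain of type I procollagen. Of the 6 fibrillar procollagen genes, 4 rose from d3 to d10 in lean mice, among them Col2a1 (log2 fold change 7.36 ± 1.06, edgeR adjusted p = 0.000806) and Col1a2 (1.35, 0.00648). From d7 to d10 in DIO mice, 3 of the 6 fell and 0 rose, with Col3a1 (-1.66) and Col5a1 (-0.99) at the smallest adjusted p, so that Adamts2 and Adamts14 rose in a step in which no gene of that list was called higher. In that step all 7 osteoclast markers rose (median log2 fold change 2.77 over the list, -0.02 over all genes), from summed levels of 941 to 1711 CPM on d7 to 9978 to 13150 CPM on d10, and 5 of 10 osteoblast and 6 of 9 adipocyte markers rose and 0 fell. The part of these cell types in the changes of the members from d7 to d10 was not tested.

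The partner enzymes at the other end of procollagen were measured beside them. Of the 4 procollagen C-proteinases and enhancers tested, 3 rose from d3 to d10 in lean mice, led by Pcolce (1.27, edgeR adjusted p = 0.00204), an enhancer of C-propeptide removal, and Pcolce2 (3.58, 0.00235), and Bmp1, the C-proteinase itself, rose by 0.98 (0.00711). In DIO mice, 2 of the 4 fell from d7 to d10, Tll1 (-2.07, 0.0165) and Pcolce2 (-1.20, 0.0272), and 3 of the 4 fell from d14 to d21. For the VEGF-C axis, which Adamts3 serves, Vegfc and its receptor Flt4 rose from d7 to d10 in DIO mice, by 0.83 ± 0.20 (edgeR adjusted p = 0.0109) and 0.79 ± 0.21 (0.0154), while Adamts3 fell. Both also differed between the diets in that step, by 1.26 ± 0.30 (0.0191) and 1.24 ± 0.28 (0.0143).

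Of the aggrecanases, Adamts1 and Adamts4 were highest early and fell. In lean mice, Adamts1 was at 65.9, 51.1 and 61.3 CPM on d3 and at 36.8, 17.8 and 32.5 CPM on d10. Adamts4 was at 60.3, 33.5 and 38.7 CPM on d3 and at 27.3, 17.0 and 22.9 CPM on d10. The d3 and d10 groups did not overlap in either gene. Adamts1 fell by 1.00 ± 0.24 in log2 units (edgeR adjusted p = 0.00955), a call that held without each mouse in turn, and Adamts4 fell by 0.94 ± 0.25 (0.0145), a call lost without d3 mouse 1 (adjusted p = 0.0644). Adamts12 joined them, at 21.4, 13.3 and 13 CPM on d3 and 6.70, 4.83 and 9.43 CPM on d10 (log2 fold change -1.15 ± 0.40, edgeR adjusted p = 0.0485), but its call was lost without d3 mouse 1 (0.168), 2 (0.0721) or 3 (0.0569), without d10 mouse 1 (0.105) or 2 (0.134), and with upper-quartile factors (0.0523). With Adamts2 and Adamts14, these made 5 of 8 members called from d3 to d10 in lean mice, 2 higher and 3 lower, where 29.3% of all genes were called. Adamts9 was 0.62 ± 0.24 higher without a call (edgeR adjusted p = 0.073), but was called without lean d10 mouse 1 (0.0405) and with the replicate block (0.0356). These were 1 of 6 fits that left out 1 mouse, with adjusted p values of up to 0.226, and 1 of 7 other settings. Adamts5 was 0.04 higher (0.89). In the same step all 12 chondrocyte, 8 of 10 osteoblast and all 7 osteoclast markers rose. Of 9 macrophage markers 5 fell and 2 rose, and of 8 neutrophil markers 4 fell and 1 rose. The part of these markers in the changes of the members was not tested.

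In DIO mice, Adamts1 was at 63.5, 79.2 and 75.4 CPM on d3, at 53.2, 50.3 and 34.2 CPM on d7 and at 30.2, 17.3 and 19.4 CPM on d10. All 3 calli of d10 were below all 3 of d7, and Adamts1 fell by 1.04 ± 0.29 in log2 units (edgeR adjusted p = 0.0224). The call was lost without d7 mouse 1 (0.0777) or 2 (0.0679) or d10 mouse 2 (0.109) or 3 (0.0866). Adamts4 went from 37.3, 54.8 and 53.2 CPM on d3 and 53.2, 50.5 and 65.9 CPM on d5 to 33.8, 37.6 and 22.8 CPM on d7 and 26.9, 14.6 and 19.6 CPM on d10. It reached 5.13, 9.57 and 7.88 CPM on d21, its lowest group, but none of its single steps passed the threshold: the log2 fold changes were -0.85 from d5 to d7, -0.62 from d7 to d10, -0.56 from d10 to d14 and -0.88 from d14 to d21, with edgeR adjusted p values of 0.103 to 0.436. Without d14 mouse 2, at 5.90 CPM, the last of these passed (adjusted p = 0.0129). It passed in only 1 of 6 fits that left out 1 mouse. Over these the adjusted p reached 0.645 and the log2 fold change ran from -1.25 to -0.27.

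Adamts9, which cleaves versican as well as aggrecan, rose from d7 to d10 in DIO mice, where Adamts1 fell. In DIO mice it was at 54.2, 42.6 and 38.5 CPM on d7, at 95.2, 69.0 and 99.8 CPM on d10, at 127, 68.4 and 113 CPM on d14 and at 50.05, 63.8 and 57.1 CPM on d21. The d10 values were all above those of d7 and the d21 values all below those of d14. It rose from d7 to d10 by 0.96 ± 0.21 (edgeR adjusted p = 0.00481), a call that held without each mouse in turn, and fell from d14 to d21 by 0.85 ± 0.21 (0.0103), a call lost without d14 mouse 1 (0.0558) or d21 mouse 1 (0.0543). In lean mice it lay between 38.0 and 83.4 CPM with no call. Genes on the opposite strand share 9.18% (A730049H05Rik) and 2.82% (Gm15737) of its exons. The library kit kept the strand, but the strand option of the counting is not given in the sources used here. Over the 30 libraries Adamts9 was more like Adamts2 (r = 0.78) than like any other member, and its most similar genes were Antxr2, Ccn4 and Ust (r = 0.91, 0.91 and 0.90).

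Adamts5, which is regarded as a main aggrecanase of mouse cartilage, had the narrowest span of group means. Its levels lay between 17.5 and 46.0 CPM over all 30 libraries, with group means from 22.3 ± 5.19 CPM (DIO d7) to 35.9 ± 10.1 CPM (DIO d21). By edgeR it was the 1 member with no call in any of the 17 comparisons, and its test over all DIO days gave F = 2.92 (adjusted p = 0.0687). DESeq2 and edgeR with a replicate block (adjusted p = 0.0459) called it over the DIO days. No gene was closely like it, with Usp24 at r = 0.70, Map3k6 at 0.67 and Rabgef1 at 0.66. Over the 30 libraries its correlation with Adamts1, its neighbour on chromosome 16, was 0.09, but 0.73 for the deviations from the group means.

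Adamts12 was at 10.4, 23.7 and 16 CPM on d3, at 27.1, 23.5 and 25.8 CPM on d5 and at 16.6, 17.3 and 10.6 CPM on d7 in DIO mice. It was at 9.21, 5.77 and 5.74 CPM on d10, at 9.41, 7.26 and 6.55 CPM on d14 and at 2.42, 5.76 and 3.52 CPM on d21. All values of d10 were below those of d7, and all of d21 below those of d14. It fell from d7 to d10 by 1.10 ± 0.32 (edgeR adjusted p = 0.0302) and from d14 to d21 by 0.99 ± 0.33 (0.0437). The first call was lost without d7 mouse 1 (0.0862) or 2 (0.0985), without d10 mouse 2 (0.121) or 3 (0.11), and in a fit of all 30 libraries (0.0535). The second was lost without d14 mouse 1 (0.141), 2 (0.0577) or 3 (0.0671), without d21 mouse 1 (0.183) or 3 (0.107), and in the fit of all 30 libraries (0.07). From d14 to d21, 6 of 9 fibroblast markers fell and 6 of 8 erythroid markers rose, and their part in the change of Adamts12 and Adamts9 was not tested. Adamts12 and Adamts4 were the most alike of all 28 pairs of members (r = 0.86, and 0.56 within groups), and the genes most like Adamts12 were Igdcc4, Usp22 and Lamc1 (r = 0.94, 0.93 and 0.93). Those most like Adamts4 were Dctd, Tnfrsf23 and Ergic1 (0.94, 0.93 and 0.93), and among those most like Adamts1 were Ier3 and Glis3 (0.90 and 0.89).

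**Figure D4:**
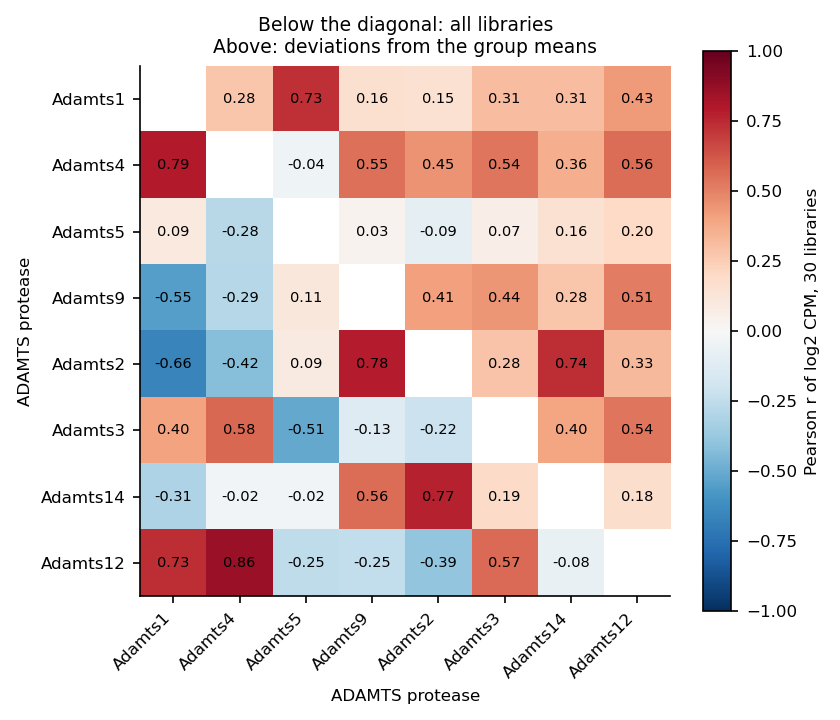
Pearson r of log2 CPM between the 8 ADAMTS proteases over 30 libraries, below the diagonal over all libraries and above it for deviations from the group means (colour scale from -1 to 1). Below the diagonal, 5 pairs exceed 0.7: Adamts4 with Adamts12 (0.86), Adamts1 with Adamts4 (0.79), Adamts2 with Adamts9 (0.78) and Adamts14 (0.77), and Adamts1 with Adamts12 (0.73). Above it, Adamts2 with Adamts14 (0.74) and Adamts1 with Adamts5 (0.73) do.

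Of the 9 calls that edgeR made between neighbouring days of a diet, 6 fell in the step from d7 to d10 in DIO mice and 0 in the lean course. In lean mice 4 of 8 members (Adamts1, Adamts4, Adamts2 and Adamts14) differed between any of the days, against 19% of all genes. Of these, Adamts14 (edgeR adjusted p = 0.018) lost its call without d3 mouse 1 (0.0595) or 2 (0.0651), and Adamts2 (0.034), Adamts1 (0.0423) and Adamts4 (0.0437) kept theirs in 5, 4 and 3 of the 12 fits that left out 1 mouse, with adjusted p values of up to 0.105, 0.141 and 0.0919. In a fit of all 30 libraries, Adamts4 was not called (0.0853). Without d3 mouse 1, 0 members were called over the lean days. Consecutive lean days gave 0 calls by edgeR. From d3 to d5, where 0.449% of all genes were called, 3 members and 2430 of 16471 genes had an unadjusted p under 0.05. DESeq2 called 605 genes and 1 member, Adamts14, in that step. From d5 to d7, edgeR called 0% of all genes, 926 genes but 0 members had an unadjusted p under 0.05, and DESeq2 called 37 genes and 0 members. From d7 to d10, with 2.73% of all genes called, 4275 genes but 0 members had an unadjusted p under 0.05, and DESeq2 called 1827 genes and 0 members. The largest lean changes between neighbouring days were those of Adamts12, at -0.80 ± 0.39 from d5 to d7 (edgeR adjusted p = 0.896) and -0.87 ± 0.40 from d7 to d10 (0.193), and of Adamts3, at 0.78 ± 0.45 from d3 to d5 (0.454). The log2 fold changes of Adamts1 (-0.61) and Adamts12 (0.52) from d3 to d5 and of Adamts4 (-0.52) from d5 to d7 had edgeR adjusted p values of 0.256 to 0.884.

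In DIO mice edgeR called 7 of 8 members, all but Adamts5, over any of the days, against 59.1% of all genes. DESeq2 called 8 members among 10828 genes, and edgeR with the replicate block called 8 among 9484. The F values were largest for Adamts3 (53.4, edgeR adjusted p = 9.44e-08), Adamts12 (18.5, 2.19e-05), Adamts4 (17.3, 3.19e-05) and Adamts1 (16.5, 4.16e-05). Adamts14 was the weakest of the 7 (adjusted p = 0.03), and its call was lost without d3 mouse 1 (0.0533), d7 mouse 1 (0.051) or 2 (0.0529), or d10 mouse 1 (0.0745) or 2 (0.0701). Between d7 and d10, 6 of 8 members were called, Adamts9, Adamts2 and Adamts14 higher and Adamts1, Adamts3 and Adamts12 lower, where 13% of all genes were called. Each of the other steps held few or no calls. From d5 to d7, 0 members and 0.0177% of all genes were called by edgeR. The unadjusted p was under 0.05 in 2411 of 16995 genes and in 3 members, Adamts4 (-0.85), Adamts12 (-0.78) and Adamts14 (-0.62). DESeq2 called 346 genes and 0 members. From d10 to d14, edgeR and DESeq2 called 0 members, and edgeR called 0.759% of all genes. In that step 3006 genes but 0 members had an unadjusted p under 0.05. From d14 to d21, 2 members were called, Adamts9 and Adamts12, both lower, where 19.6% of all genes were called. From d3 to d5 in DIO mice, the log2 fold changes of Adamts1 (-0.56), Adamts14 (0.62) and Adamts12 (0.61) did not pass the threshold (edgeR adjusted p values of 0.244 to 0.403).

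Between the diets, the changes from d7 to d10 of the members other than Adamts3 were -0.71 for Adamts1, 0.77 for Adamts9, 0.51 for Adamts2 and 0.56 for Adamts14, with edgeR adjusted p values of 0.14 to 0.277, and the remaining 3 lay between -0.29 and 0.10.

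The balance of the classes was followed as the mean log2 CPM of the 4 aggrecanases minus that of the 3 procollagen N-proteinases in each callus. Since gene lengths enter its level, only its change over days is read. It was 0.09 ± 0.13 (SD, n = 3) on d3 in lean mice and -0.67 ± 0.28, -0.90 ± 0.19 and -1.21 ± 0.22 on d5, d7 and d10. In DIO mice it was 0.24 ± 0.06 on d3, -0.71 ± 0.16 on d5 and between -0.91 and -0.80 in the means of d7 to d21. In both diets every callus of d3 (lowest value -0.04) lay above every callus of the later days (highest value -0.36), so the balance moved toward the procollagen N-proteinases between d3 and d5 and the later groups of DIO mice overlapped. The members that made up the procollagen side changed, however. Adamts3 held 24.7% of the summed CPM of that class in DIO mice on d7 and 4.58% on d10, against 10.2% and 8.99% in lean mice. These shares are not divided by exon length (9336 bases for Adamts2 and 5430 for Adamts3), so only their change is read. They also move with Adamts2 and Adamts14, which rose from d7 to d10 in DIO mice. Without Adamts2 in the class, the lean values of the balance were 1.06 on d3 and -0.34 on d10. The DIO values were 1.14 on d3 and 0.39 on d21. These last days differ, so the end points of the diets cannot be set against each other. The DIO values of the days between, with the highest Adamts3 mean on d7, are not given here.

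**Figure D5:**
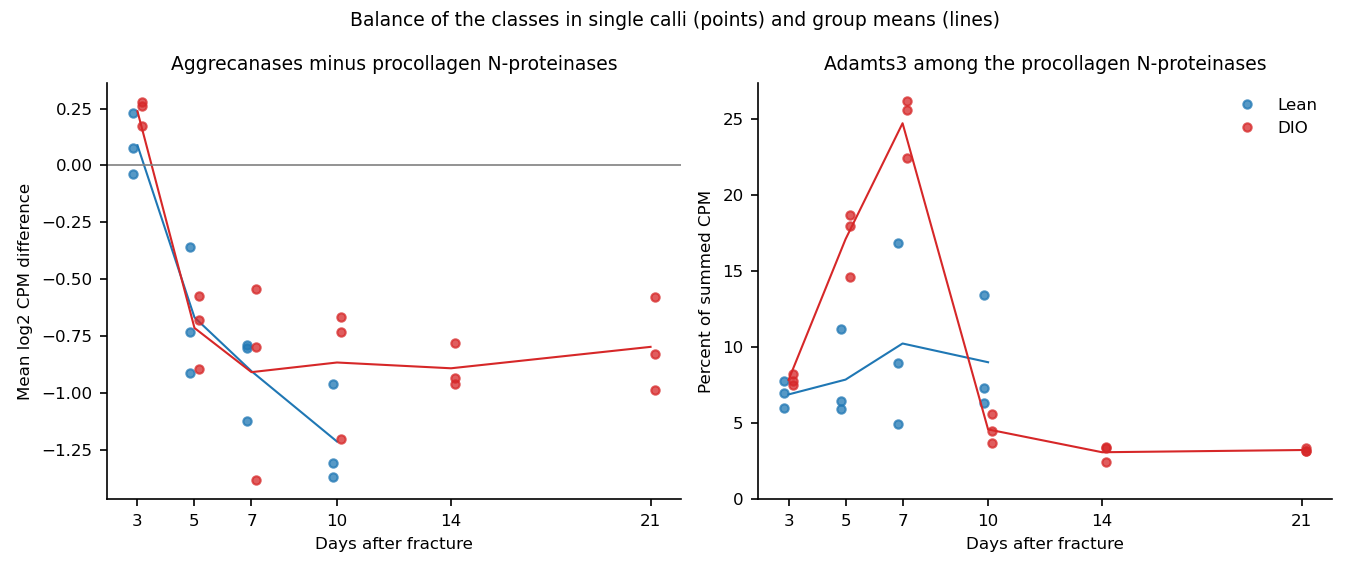
Left, mean log2 CPM of the aggrecanases minus that of the procollagen N-proteinases (vertical axis) against days after fracture, and right, Adamts3 as a percent of the summed CPM of the procollagen N-proteinases, with 1 point per callus and lines through group means (blue, lean; red, DIO). The balance is highest on d3 in both diets, at 0.09 and 0.24, and the share of Adamts3 in DIO mice goes from 24.7% on d7 to 4.58% on d10.

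The cytokines known to induce aggrecanases, their activators and the remaining family were listed beside the members. Of 5 inducing cytokines tested, 4 fell from d3 to d10 in lean mice, with Osm (-3.03, edgeR adjusted p = 0.00156), Tnf (-2.35, 0.00252) and Il1b (-2.56, 0.00531) at the smallest adjusted p, in the step in which Adamts1, Adamts4 and Adamts12 fell. From d3 to d5 in DIO mice 0 of the 5 were called, with a median log2 fold change of -0.74. Adamts4 and Adamts12 had their highest group means on d5 in DIO mice. From d7 to d10 in DIO mice, Il1b (-2.52, 0.00458) and Tnf (-2.81, 0.0335) were called lower. DIO d7 mouse 1 held 175 CPM of Il1b and 21.6 CPM of Tnf, and the other DIO mice of d7 held 19.8 and 61.9 CPM of Il1b and 1.21 and 1.25 CPM of Tnf, so that apart from this mouse Tnf overlapped its d10 range of 0.910 to 1.30 CPM. Of 11 inhibitors, activators and clearance genes, 4 rose from d3 to d10 in lean mice, among them Timp2 (0.93, 0.00181) and Fn1 (2.15, 0.00396), and 4 fell and 1 rose from d7 to d10 in DIO mice, among them the convertases Pcsk5 (-1.15, 0.0134) and Furin (-0.84, 0.0178). The part of these genes and of the cytokines in the changes of the members was not tested.

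Of the other ADAMTS proteases, 9 of 11 could be tested, and 2 rose from d3 to d10 in lean mice, Adamts17 (1.93, edgeR adjusted p = 0.00113) and Adamts10 (0.82, 0.00287). From d7 to d10 in DIO mice, Adamts10 (0.66, 0.0199) and Adamts15 (0.81, 0.0211) rose with Adamts2, Adamts9 and Adamts14, and Adamts16 (-2.99, 0.00267) fell with Adamts3. Adamts16 had also risen with Adamts3 from d3 to d5 (2.61, 0.0258). Of the 7 ADAMTS-like proteins, which lack the protease domain, 3 fell from d7 to d10 in DIO mice, Adamtsl3 (-1.83, 0.00207), Adamtsl1 (-1.49, 0.0145) and Adamtsl4 (-1.07, 0.0218), and 0 rose. Of the 3 hyalectans tested, the substrates of the aggrecanases, Acan alone was called in lean mice from d3 to d10, and from d7 to d10 in DIO mice 1 rose and 1, Acan, fell. Acan rose by 3.85 ± 0.79 from d3 to d10 in lean mice (edgeR adjusted p = 0.00464) and fell by 3.26 ± 0.68 from d7 to d10 in DIO mice (0.00379). In the lean step in which Acan rose, Adamts1 and Adamts4 fell, and Adamts5 and Adamts9 were not called.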

How the data were processed

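Raw read counts per gene were analysed from 30 libraries of mouse callus. The authors trimmed the reads, aligned them to GRCm38 with HISAT2 2.1.0, counted them with HTSeq and deposited these raw counts. The version, strand option and annotation of HTSeq are not given in the sources used here. Counts were scaled with TMM factors, filtered with filterByExpr and tested, over all genes, with quasi-likelihood F-tests (edgeR 4.0.16 in R 4.3.3, two-sided) in 17 comparisons. Days were compared in fits of the 12 lean or 18 DIO libraries, diets within a day in fits of 6, and the change of the diet difference and the time course in fits of 24. DESeq2 1.42.0 was an alternative, beside other factors and filters, a replicate block, a fit of all 30 libraries and each library left out. The tests were tested on simulated data. Likeness was Pearson's r of log2 CPM with a prior count of 2 over 17238 genes that are no members.

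All 8 members are named. A fold change of a member is given where its adjusted p was under 0.05 or its log2 fold change at least 0.5 either way. In a few places it is also given where neither held. At most 3 genes of smallest adjusted p are named from another list. Some genes the rule would name are not reported here. Members and lists were chosen with earlier results of these data known. Symbols, positions and lengths come from GENCODE M21, which holds 42548 of the 43629 genes. Of 13 pairs of groups, same-numbered mice deviated together in all 3 pairs (correlation over 0.1) only between lean d5 and d7 (0.204 to 0.277), where the replicate block gave 0 calls as well.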

Additional observations from a re-analysis of the deposited data

Results flagged for a closer look

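The change of Adamts3 from d7 to d10 differed between the diets by an interaction test in edgeR, with a log2 difference of -2.11 ± 0.50 (DIO change minus lean change, adjusted p = 0.0191). All 3 DIO mice of d10 (13.3 to 16.2 CPM) were below all 3 of d7 (53.4 to 62.2 CPM), while the lean mice of d7 (14.9 to 47.2 CPM) and d10 (23.1 to 49.9 CPM) overlapped. The call was lost without lean d7 mouse 2 (adjusted p = 0.056), lean d10 mouse 1 (0.0831) or DIO d10 mouse 1 (0.0583) and was kept without each of the other 9 libraries of d7 and d10. Chondrocyte markers moved the same way, 9 of 12 of them called in this comparison, and 6 of 7 osteoclast markers were called the other way. Other marker lists also held calls, and the part of all these markers was not tested.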

How the results depend on the processing

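The counts of members called by edgeR were recomputed under other scaling factors, other filters, DESeq2, a replicate block, 1 fit of all 30 libraries and without each library in turn, and 236 of 262 alternatives left the count within 1.5 times the value given. A count of 0 that stayed at 0 was scored as unchanged, so the comparisons without a member called enter that number. None of the alternatives turned a direction. Directions were looked at only for members that were called or had a log2 fold change of at least 0.5 either way. DESeq2 called 1 member in place of 0 from d3 to d5 in lean mice and 1 in place of 0 between the diets on d5 and on d7. A fit of all 30 libraries called 1 member in place of 2 from d14 to d21 in DIO mice. Leaving out 1 library gave 0 to 5 members over any lean day, 3 to 6 from d3 to d10 in lean mice, 3 to 6 from d7 to d10 and 0 to 4 from d14 to d21 in DIO mice, 0 to 1 between the diets on d5 and on d7, and 0 to 1 for the change of the diet difference from d7 to d10. The number of all genes called moved as well without 1 library. Between the diets it was 0 to 237 on d3, 0 to 935 on d5 and 29 to 936 on d7. In lean mice it was 9 to 129 from d3 to d5 and 24 to 1141 from d7 to d10. It was 2863 to 5016 from d3 to d10 and 1678 to 3130 over any lean day. In the consecutive steps of the DIO course it was 90 to 216, 0 to 236, 1510 to 2495, 0 to 459 and 1285 to 4070. For the change of the diet difference it was 257 to 1660, and for the time course 619 to 1983. The shares of all genes printed beside the members move with these numbers. The cause was not tested. With the replicate block, edgeR called 5 members and 3865 genes over any lean day and 7 members and 5277 genes from d3 to d10 in lean mice. Over any DIO day it called 8 members and 9484 genes. The members that also passed were Adamts12 (edgeR adjusted p = 0.0162), then Adamts9 (0.0356) and Adamts3 (0.0325), and Adamts5 (0.0459), in that order of comparisons. In other comparisons the block left the number of members as it was. Over all genes, DESeq2 in place of edgeR called 605 against 74 from d3 to d5 and 1827 against 450 from d7 to d10 in lean mice, 728 against 0 on d3, 1150 against 170 on d5 and 944 against 366 on d7 between the diets, 2501 against 1386 for the time course, 1496 against 865 for the change of the diet difference, 4848 against 3132 over any lean day, 37 against 0 from d5 to d7 in lean mice, 47 against 0 between the diets on d10, and 575 against 285, 346 against 3 and 552 against 129 from d3 to d5, d5 to d7 and d10 to d14 in DIO mice. The replicate block gave 199 from d3 to d5 and 1479 from d7 to d10 in lean mice, 45 from d10 to d14 in DIO mice, and 325 on d3 and 0 on d5 between the diets. Upper-quartile factors and a filter of 0.5 CPM in 1 library each gave 1 on d3 between the diets. The fit of all 30 libraries gave 202 from d3 to d5, 2 from d5 to d7 and 1529 from d7 to d10 in lean mice, 1 from d5 to d7 and 2 from d10 to d14 in DIO mice, and 63 on d5, 675 on d7 and 3 on d10 between the diets. Without a filter on low counts the numbers were 169 from d3 to d5 in lean mice, 478, 271 and 329 for the first, the second and the fourth step of the DIO course, and 515, 565, 724 and 29 between the diets on d3, d5, d7 and d10. The lowest count of a member in any library was 42 (Adamts12), and the other members had at least 89.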

Other observations

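Adamts1 and Adamts5 lie next to each other on chromosome 16, 53059 bases apart and on the same strand, and their group means ran differently: Adamts1 was at 72.7 ± 8.18 CPM (SD, n = 3) on d3 and 21.2 ± 10.6 CPM on d21 in DIO mice, and Adamts5 at 34.9 ± 2.12 and 35.9 ± 10.1 CPM. Within groups they deviated together (r = 0.73 over 30 libraries, against 0.09 before the group means were taken out). In the DIO calli of d21, for example, Adamts1 was at 31.6, 21.3 and 10.5 CPM and Adamts5 at 46.0, 35.9 and 25.8 CPM. Of the 28 pairs of members, only this pair and Adamts2 with Adamts14 (0.74) exceeded 0.7 within groups. The values share libraries and scaling factors, and the pair was picked out after its values were seen.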
